A study of Capsicum chinense with 22 samples.

Results

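Ripe pericarp of a pungent and of a non-pungent yellow-fruited accession of *Capsicum chinense*, A101 and A18, was compared at 60 days after anthesis (DAA). The comparison rested on 6 of the 22 RNA-seq libraries of the series, 3 per accession, which were taken by accession and stage alone, and it covered all 16922 genes of the deposited table. The study sampled fruits of 4 accessions at 20 and 60 DAA, and asked which genes accompany the accumulation of soluble solids. Hab and A101 were pungent and Biq and A18 were not, and the ripe fruits were red in Hab and Biq and yellow in A101 and A18. Each library came from fruits of a single untreated plant. A p-value here thus weighed a difference against the spread between plants of the same accession and stage, pooled over all 8 groups of libraries. With 1 accession on each side, pungency cannot be told apart from any other difference between A101 and A18.

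The ripening of pepper fruit turns chloroplasts into chromoplasts: chlorophyll and the photosynthetic complexes are lost, carotenoids accumulate, and enzymes loosen the cell wall. Pungency comes from capsaicinoids, which are made mainly in the placenta, a tissue that was not sampled here, by joining a vanillyl group from phenylpropanoid metabolism to a branched-chain fatty acid. The wall, the cuticle and defence proteins are further features in which pepper accessions are known to differ.

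Values were variance-stabilized expression levels on a scale close to log2, from which the mean of each gene over the 22 libraries had been subtracted. A level of 2 thus lies 2 units above the mean of that gene, and levels can be compared between libraries but not between genes. The table held no counts, so the depth behind each value is unknown from it, and library sizes were not used here. Genes at the detection floor share 1 lowest value. Because pericarp was sequenced in bulk, fewer cells of a type and less RNA per cell cannot be told apart. The marker genes of ripe pepper pericarp given below were high in all 6 libraries. A further marker, *LOC107838797* (defensin J1-1), is not described here. *LOC107875664*, capsanthin/capsorubin synthase, the last enzyme of red pigment synthesis, lay between 4.90 and 5.95 in ripe fruit against −6.41 to −5.94 at 20 DAA. *LOC107843830*, polygalacturonase-2, which cuts pectin, lay between 3.81 and 5.23 against −3.86 to −3.56 at 20 DAA. *LOC107863219*, beta-carotene hydroxylase 1, lay between 2.48 and 3.61 against −3.52 to −2.73. The differences between accessions in ripe fruit were 0.64 ± 0.33 (SE, adjusted p = 0.15), 0.58 ± 0.21 (adjusted p = 0.045) and −0.80 ± 0.16 (adjusted p = 0.00093), all under 1 unit.

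Between ripe A101 and ripe A18, 918 genes differed by at least 1 unit with an adjusted p under 0.05 (limma, Benjamini-Hochberg), which is 5.42% of the genes tested. Of these, 494 were higher in A101 (2.92%) and 424 were lower (2.51%). The 3 libraries of one accession lay wholly on one side of the other 3 for 910 of the 918 genes. Over all genes, libraries were separate in this way with A101 higher for 3588 genes (21.2%) and with A101 lower for 3451 genes (20.4%). The median absolute difference was 0.22 at 60 DAA, against 0.15 between the same accessions at 20 DAA and 0.34 between ripe Hab and Biq. Differences of at least 3 units were seen for 32 genes higher and 28 genes lower in A101. As a Euclidean distance over all genes, libraries of ripe A101 and ripe A18 were 69.97 to 85.49 apart, which was above the spread within A101 (28.63 to 39.76) and within A18 (30.79 to 44.30) and well under the distance between ripe and immature A101 (181.00 to 194.36).

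**Figure D1:**
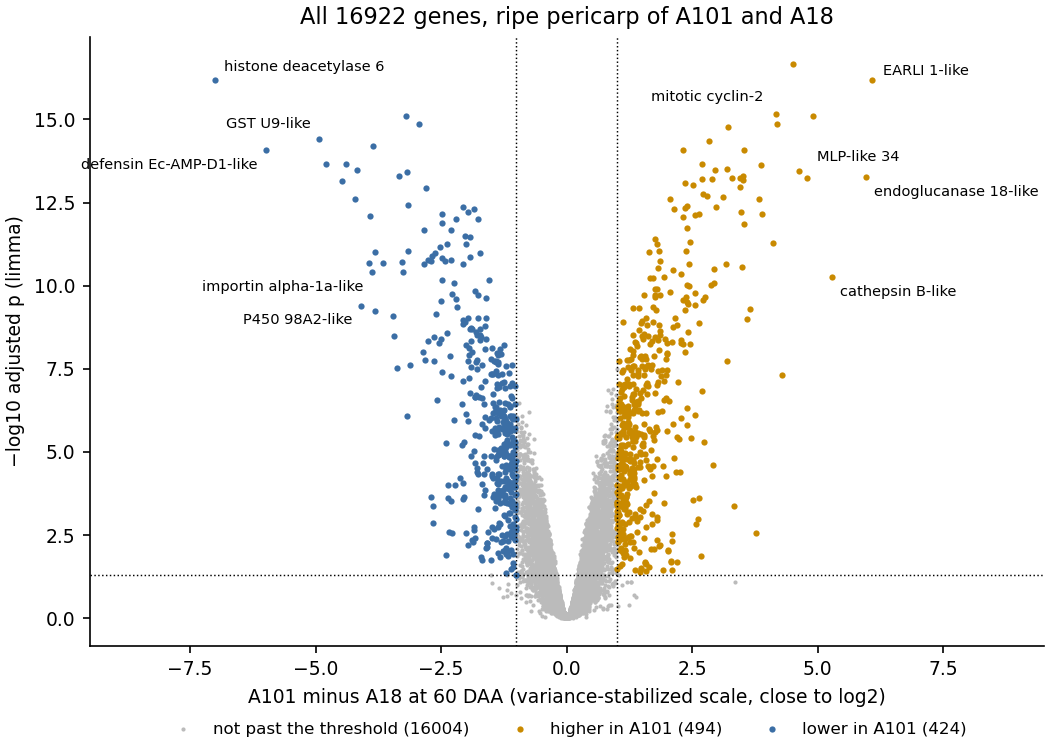
Differences between A101 and A18 at 60 DAA (x axis, variance-stabilized scale close to log2) against −log10 of the limma adjusted p (y axis) for 16922 genes; dotted lines mark the thresholds. The 494 genes higher in A101 and the 424 lower in A101 are coloured, and *LOC107845594* (histone deacetylase 6) and *LOC107867449* (EARLI 1-like) are the farthest from 0 on each side.

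The genes highest in A101 over A18 encoded a secreted lipid transfer protein, a wall hydrolase, a protease, defence proteins and regulators of chromatin and transcription. *LOC107867449* (lipid transfer protein EARLI 1-like), of a family of small secreted proteins that bind lipids, stood at 4.89, 4.80 and 4.64 in A101 and at −1.37, −1.16 and −1.39 in A18. The difference was 6.08 ± 0.13 (SE, n = 3 per accession, adjusted p = 6.3e-17), the largest among named genes in this direction. At 20 DAA the gene was low in both accessions, so A101 rose by 7.46 between the stages, whereas the change in A18 was 0.68 and did not pass. *LOC107864477* (endoglucanase 18-like), a glycosyl hydrolase of the family that cuts beta-1,4-glucans in the wall, stood at 5.79, 5.83 and 5.83 in A101 and at 0.40, −0.17 and −0.64 in A18, a difference of 5.95 ± 0.21 (adjusted p = 5.4e-14). It rose in both accessions during ripening, by 8.93 in A101 and by 3.01 in A18. *LOC107858946* (cathepsin B-like, a papain-type cysteine protease) was at its lowest value in all 5 immature libraries and in 2 of 3 ripe A18 libraries, and reached 4.73, 4.91 and 4.33 in ripe A101. The fitted difference was 5.28 ± 0.29 (adjusted p = 5.4e-11), whose size depends on the floor of the scale.

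Defence-type and regulatory genes followed. *LOC107872430* (MLP-like protein 34, of the major latex protein family, which is related to pathogenesis-related proteins) was at 4.27, 3.66 and 3.91 in A101 and between −0.84 and −0.82 in A18, a difference of 4.78 ± 0.17 (adjusted p = 5.7e-14). A pair of genes annotated as defensin-like protein, *LOC107877540* and *LOC107854042*, was higher by 4.29 ± 0.38 and 3.83 ± 0.15 (adjusted p = 4.8e-08 and 2.4e-13). The libraries of the accessions did not overlap for either. Reads of near-identical defensin copies can be divided between genes by the quantification, so the share of each copy is uncertain. *LOC107844967* (TGA6-like, a bZIP factor of the family that acts in salicylate-dependent defence in Arabidopsis) stood at 3.24, 3.32 and 3.66 in A101 and at −0.48, −0.56 and −0.35 in A18. *LOC107853985* (DEMETER-like), a relative of the Arabidopsis DNA glycosylase that removes methylated cytosines, stood at 2.06, 2.50 and 2.54 against −1.52, −1.47 and −1.61. The differences of 3.87 ± 0.13 and 3.90 ± 0.16 (adjusted p = 2.4e-14 and 6.8e-13) arose from rises of 4.46 and 4.06 in A101. In ripe Hab and Biq, DEMETER-like lay at 2.70 and 2.73 and at 2.71 to 3.55, so that ripe A18 was the low accession. *LOC107866796* (G2/mitotic-specific cyclin-2, which drives entry into mitosis) was at its lowest value in all 3 ripe A18 libraries and at 2.25, 2.13 and 2.15 in A101 (4.16 ± 0.10, adjusted p = 6.7e-16). The large difference of *LOC107873046* (60S ribosomal protein L10-like, 3.77 ± 0.86, adjusted p = 0.0027) rested on uneven A18 libraries, with values of −0.45, −3.11 and −3.11.

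Genes highest in A18 over A101 included a histone deacetylase, a defensin, glutathione S-transferases and enzymes of phenolic metabolism. *LOC107845594* (histone deacetylase 6), which removes acetyl groups from histones, stood at 2.42, 2.92 and 2.70 in A18 and at −4.39, −4.34 and −4.21 in A101, and was higher in A18 by 6.99 ± 0.15 (adjusted p = 6.3e-17). It was also low in A101 at 20 DAA (−4.74 to −4.37) and was high in immature A18, Hab and Biq, so A101 was the low accession at both stages. *LOC107855074* (defensin Ec-AMP-D1-like), a small antifungal-type peptide, stood at 0.99, 1.36 and 1.18 in A18 and at −4.51, −5.03 and −4.89 in A101, a difference of 5.99 ± 0.18 in favour of A18 (adjusted p = 8.2e-15). At 20 DAA the accessions were at 1.09 to 1.95 and 0.83 to 0.99, and A101 then fell by 5.71 whereas the change of −0.35 in A18 did not pass. Ripe Hab was also low (−3.88 and −3.83) and ripe Biq high (2.04 to 2.56).

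*LOC107864635* and *LOC107864633* (both glutathione S-transferase U9-like), which conjugate glutathione to reactive compounds, were higher in A18 by 4.93 ± 0.14 and 4.80 ± 0.16 (adjusted p = 3.8e-15 and 2.2e-14). Ripe A18 lay between 3.09 and 3.83 for the pair, and A101 between −1.55 and −1.27. They carry the same name in the table, and the reads of such copies may have been divided between them. *LOC107844024* (cytochrome P450 98A2-like), of the family whose Arabidopsis member hydroxylates coumaroyl esters on the way to caffeoyl and feruloyl compounds, stood at 3.62, 3.32 and 3.50 in A18 and at −0.75, −0.47 and −0.64 in A101 (higher in A18 by 4.10 ± 0.26, adjusted p = 4e-10). It rose by 5.73 in A18 and by 1.65 in A101, and in the red pair was high in Biq (4.39 to 5.77) and low in Hab (−0.76 and −0.68). *LOC107868368* (zingipain-2-like, a cysteine protease) was at 2.35, 2.31 and 2.61 in A18 and at −1.64, −1.54 and −1.36 in A101, a difference of 3.93 ± 0.21 (adjusted p = 2.1e-11). *LOC107841040* (aldehyde dehydrogenase family 2 member C4-like), whose Arabidopsis relative oxidizes coniferaldehyde and sinapaldehyde, was higher in A18 by 4.22 ± 0.16. *LOC107867057* (importin subunit alpha-1a-like, a nuclear import adaptor) was higher by 3.88 ± 0.21, after a rise of 4.12 in A18. *LOC107855552* (SAUR68-like), of a family of early auxin-response genes, was higher by 3.66 ± 0.19.

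**Figure D2:**
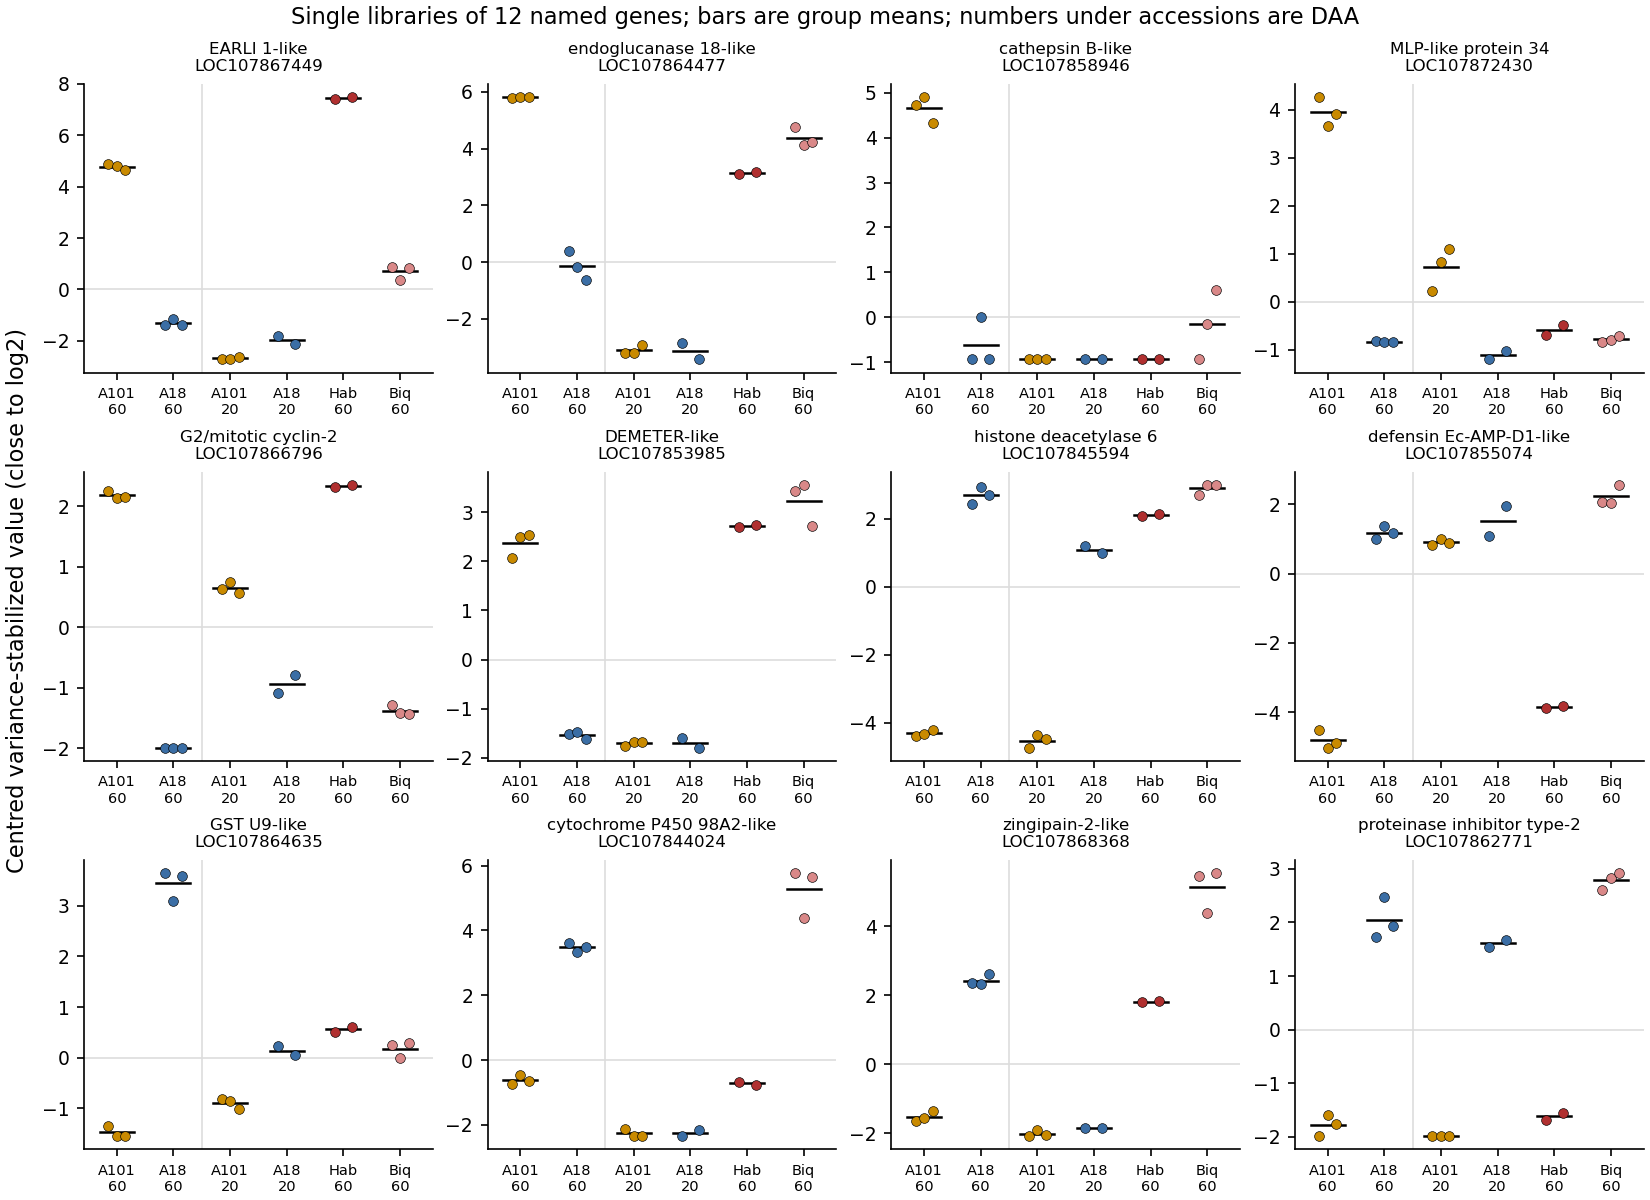
Value of each library (points) and group mean (bars) for 12 genes, on the centred variance-stabilized scale (close to log2), in A101 and A18 at 60 and 20 DAA and in Hab and Biq at 60 DAA. The 3 ripe A101 points and the 3 ripe A18 points do not overlap in any of the 12 panels, and for *LOC107864477* (endoglucanase 18-like) ripe A101 lies at 5.79 to 5.83 against −0.64 to 0.40 in ripe A18.

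Genes of capsaicinoid synthesis, the route behind pungency, differed in both directions in ripe pericarp. In the vanillyl branch 3 of 56 genes were higher in A101 (5.36%, against 2.92% of all genes) and 1 was lower (1.79%, against 2.51%), with a median difference of −0.03 against 0.01 over all genes. These counts were 2 and 3 after quantile normalization and 3 and 5 with library weights, and 2 were lower without the first A18 library. In the acyl branch 4 of 60 were higher and 4 were lower (6.67% each way), with a median of −0.06, and 1 of 18 BAHD acyltransferases, the family of capsaicin synthase, was higher. The vanillyl genes higher in A101 were *LOC107843384* (caffeic acid 3-O-methyltransferase, 2.28 ± 0.17, adjusted p = 5.2e-09), *LOC107840262* (caffeoyl-CoA O-methyltransferase 6, 1.13 ± 0.21, and 0.94 after quantile normalization) and *LOC107850386* (4-coumarate--CoA ligase-like 5, 1.09 ± 0.15, and 0.97 without the second A18 library), and the lower one was the P450 98A2-like gene described above. The O-methyltransferases add the methoxy group of the vanillyl ring and of lignin units. Caffeic acid 3-O-methyltransferase stood at −0.94, −1.28 and −1.15 in A101 and at −3.54, −3.03 and −3.65 in A18, since it fell by 3.76 in A101 and by 5.63 in A18 during ripening.

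In the acyl branch, genes of branched-chain amino acid metabolism went both ways. *LOC107851945* (2-isopropylmalate synthase A), the first enzyme of leucine synthesis, stood at 1.83, 1.47 and 1.18 in A101 and at −0.58, −0.46 and −0.40 in A18 (1.97 ± 0.16, adjusted p = 1.6e-08). The subunits of the branched-chain 2-oxoacid dehydrogenase moved apart, with *LOC107873022* (subunit alpha 1) higher in A101 by 1.39 ± 0.17 and *LOC107876975* (subunit beta 1) higher in A18 by 1.18 ± 0.24. *LOC107878191* (3-oxoacyl-[acyl-carrier-protein] synthase, mitochondrial-like), which elongates fatty acyl chains, was higher in A18 by 1.46 ± 0.15. *LOC107855278* (long chain acyl-CoA synthetase 4-like) had uneven A18 libraries of 0.70, −0.35 and −3.12, and its difference of 2.09 ± 0.64 was 0.99 without the lowest of them, the third, when 2 genes of the branch were higher. *LOC107877868* (benzyl alcohol O-benzoyltransferase), the BAHD gene higher in A101, differed by 1.35 ± 0.15.

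The accessions differed in capsaicinoid genes of the green fruit rather than of the ripe one for a pair of genes, which were chosen after their values were seen. *LOC107854420* (gamma aminobutyrate transaminase 2), of the family that holds the pepper aminotransferase making vanillylamine, stood at 5.65, 5.28 and 5.36 in A101 and at 0.46 and 1.23 in A18 at 20 DAA. At 60 DAA it lay between −2.42 and −1.93 in all 6 libraries (0.25 ± 0.26, adjusted p = 0.52), and the stage interaction was −4.34. *LOC107864098* (3-oxoacyl-[acyl-carrier-protein] synthase I) stood at 4.43, 4.08 and 4.07 against 2.05 and 1.82 at 20 DAA, and at −3.23 to −2.77 in ripe fruit (−0.26 ± 0.44, adjusted p = 0.70).

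Photosynthesis genes were lower in ripe A101 as a group. By limma, 0 of 69 genes were higher in A101 (5 at an unadjusted p under 0.05) and 18 were lower (41), which is 26.1% against 2.51% of all genes, with a median difference of −0.62, and the libraries of the accessions were separate with A101 lower for 40 genes and with A101 higher for 6, against 20.4% and 21.2% of all genes. At an unadjusted p under 0.05 by limma, 3501 of all 16922 genes were higher and 3380 lower. The mean level of the photosynthesis list was −0.89, −0.55 and −0.85 in the A101 libraries and −0.15, −0.42 and 0.01 in the A18 libraries, without overlap. The 18 genes covered the antenna, both photosystems and the oxygen-evolving complex. *LOC107868438* (chlorophyll a-b binding protein 3C, a light-harvesting antenna protein) stood at −0.88, 0.29 and −0.42 in A101 and at 1.71, 0.79 and 1.97 in A18 (higher in A18 by 1.83 ± 0.44, adjusted p = 0.004). Its close copy *LOC107868436* was higher by 1.77 ± 0.26, and *LOC107838850* (chlorophyll a-b binding protein 7) by 1.45 ± 0.32. *LOC107859535* (oxygen-evolving enhancer protein 3-2, which stabilizes water oxidation in photosystem II) stood at −1.36, −0.98 and −1.62 in A101 and at 0.46, 0.15 and 0.81 in A18, a difference of 1.79 ± 0.26 (adjusted p = 3.1e-05).

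The markers of green tissue moved with the photosynthesis list, which they partly share: 8 of 25 were lower in A101 and 0 were higher, also at an unadjusted p under 0.05 by limma, with mean levels of −1.40 to −0.98 in A101 and −0.76 to −0.26 in A18. The same markers lay at 2.45 to 2.62 in A101 and 2.67 to 2.81 in A18 at 20 DAA, and at −1.96 to −1.09 in ripe Hab and Biq. All 4 ripe accessions were thus far under the green stage, and A18 was the least so. Without the third A18 library 8 photosynthesis genes and 3 green markers were lower, and without the first A101 library 10 and 4. At 20 DAA 0 photosynthesis genes passed in either direction by limma (2 higher and 8 lower at an unadjusted p under 0.05) and the median difference was −0.16. Over all 16922 genes, 1755 were higher and 1728 lower at that unadjusted p. The stage interaction passed for 1 photosynthesis gene more positive and 4 more negative. Whether the fruits of the accessions differed in ripeness at 60 DAA was not tested.

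Carotenoid and chlorophyll breakdown genes differed less. Of 32 carotenoid and abscisic acid (ABA) synthesis genes, 2 were higher in A101 (6.25%, against 2.92% of all genes) and 1 was lower (3.12%, against 2.51%). *LOC107868281* (chromoplastic phytoene synthase), which makes the first carotenoid of the pathway, stood at 1.79, 1.59 and 1.46 in A101 and at 0.65, 0.46 and −0.05 in A18 (1.26 ± 0.17, adjusted p = 1.9e-05). It rose by 4.56 in A101 and by 3.22 in A18, and ripe Hab and Biq lay above both at 3.95 to 4.61. *LOC107839349* (carotenoid 9,10(9',10')-cleavage dioxygenase 1-like), which cuts carotenoids to volatile apocarotenoids, was higher in A101 by 1.31 ± 0.12 because A18 fell by 1.36, while the change of −0.21 in A101 did not pass. *LOC107852027* (9-cis-epoxycarotenoid dioxygenase NCED1-like), the committed enzyme of ABA synthesis, was higher in A18 by 1.23 ± 0.21. Of 10 chlorophyll breakdown genes 0 passed by limma, with 1 higher and 4 lower at an unadjusted p under 0.05. Over all 16922 genes, 3501 were higher and 3380 lower at that unadjusted p. *LOC107866321* (STAY-GREEN-like), which starts chlorophyll removal, differed by 0.56 ± 0.14, and *LOC107847505* (pheophorbide a oxygenase), which opens the ring later, was higher in A18 by 0.76 ± 0.16.

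**Figure D3:**
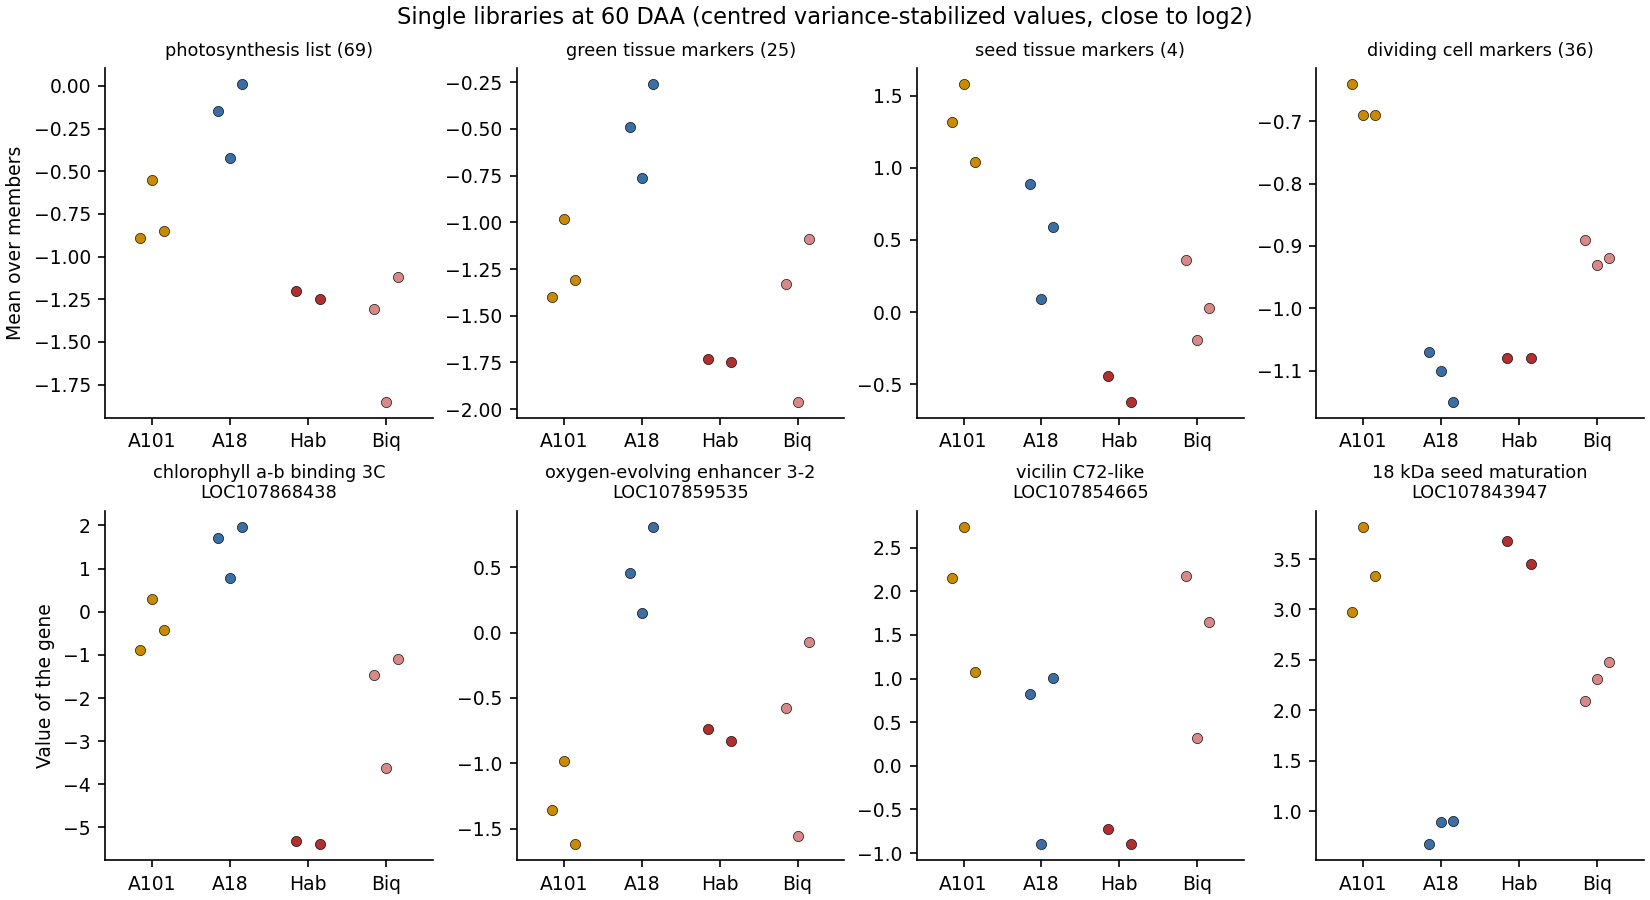
Ripe libraries (points) of A101, A18, Hab and Biq: above, the mean level of the photosynthesis list (69 genes) and of markers of green tissue (25), seed (4) and dividing cells (36); below, 4 single genes, all on the centred variance-stabilized scale. Photosynthesis means lie at −0.89 to −0.55 in A101 and −0.42 to 0.01 in A18, and seed marker means at 1.04 to 1.58 and 0.09 to 0.89.

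Of 99 ABA response genes 4 were higher in A101 (4.04%, against 2.92% of all genes) and 2 were lower (1 without the third A18 library). The higher count was 2 in a fit of the 6 libraries alone and 0 once genes that share a lowest value were left out. The list holds genes known from maturing seeds, and further genes with seed names, picked out after their values were seen, are described beside them. *LOC107843947* (18 kDa seed maturation protein-like) stood at 2.97, 3.82 and 3.33 in A101 and at 0.67, 0.89 and 0.90 in A18 (2.55 ± 0.15, adjusted p = 1.6e-10). It rose in both accessions, by 5.68 and 3.20, and lay at 3.45 and 3.68 in ripe Hab. *LOC107856112* (ABSCISIC ACID-INSENSITIVE 5), the bZIP factor that in Arabidopsis carries the ABA signal to seed maturation genes, was at 1.08, 1.89 and 1.74 in A101 and at −0.68, 0.26 and 0.18 in A18 (1.65 ± 0.19, adjusted p = 2.3e-06). Late embryogenesis abundant proteins, which protect cells on drying, included *LOC107860009* (1.73 ± 0.29), *LOC107851375* (LEA protein D-29, 1.66 ± 0.24) and *LOC107840434* (1.13 ± 0.26). The first and the last of them did not pass in the fit of the 6 libraries alone. *LOC107843177* (embryonic protein DC-8) differed by 1.00 ± 0.16, just under the threshold before rounding, and passed after quantile normalization (1.22). The 18 kDa protein, *LOC107840434* and *LOC107843177* were the ones picked out after their values were seen. *LOC107840434* differed by 0.81 without the second A101 library and by 0.92 with library weights, and passed in neither.

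Of the 4 markers of seed tissue, 3 had a difference above 0 and 1 below it (−0.17). Of 4, 2 passed higher in A101: *LOC107845520* (seed biotin-containing protein SBP65-like) stood at 2.49, 2.53 and 2.42 against 1.27, 1.37 and 1.32 (1.16 ± 0.15), and *LOC107854665* (vicilin C72-like, a storage globulin) at 2.15, 2.74 and 1.08 against 0.82, −0.90 and 1.01 (1.68 ± 0.45, adjusted p = 0.0084). The summed list had means of 1.04, 1.32 and 1.58 in A101 and 0.09, 0.59 and 0.89 in A18, above the immature libraries of both (−0.43 to −0.21), and none of the 4 markers was at its lowest value throughout either ripe accession. Without the second A18 library the vicilin difference was 1.08 and did not pass, and without the second A101 library 1.31. In the fit of the 6 libraries alone the vicilin gene did not pass either, and 1 of the markers was higher. A part of seed tissue in these libraries was not tested.

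Of the 11 carbohydrate-related genes that the study singled out, 2 passed in ripe fruit. The study chose that list on these samples, so the counts are not independent evidence. *LOC107840883* (sucrose synthase, which cleaves sucrose to feed the wall and starch) stood at −1.05, −1.11 and −0.90 in A101 and at −2.77, −2.04 and −2.19 in A18 (1.31 ± 0.16, adjusted p = 4.8e-06), and had fallen by 2.29 and 3.32 since 20 DAA. *LOC107856010* (SWEET10-like, a sugar efflux carrier) stood at 2.02, 2.95 and 2.96 against 1.84, 1.15 and 1.49 (1.15 ± 0.24, adjusted p = 0.0014), and it no longer passed without the second A18 library (0.98) or without the second or the third A101 library (1.00 and 0.99). Of the other 9, *LOC107863437* (acid beta-fructofuranosidase AIV-18, vacuolar invertase) was higher in A18 by 0.78 ± 0.23, *LOC107864054* (sucrose synthase 2) by 0.67 ± 0.13 and *LOC107867836* (alpha-amylase) by 0.60 ± 0.16, all under 1 unit. The differences of the remaining 6 lay between −0.36 and 0.46.

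The wider lists hold members of those 11. Of 56 sucrose and hexose genes 2 were higher in A101 (3.57%) and 1 was lower (1.79%), and of 41 starch genes 2 were higher (4.88%). The higher starch count was 0 once genes that share a lowest value were left out. Of 31 sugar transporters 1 was higher (3.23%, against 2.92% of all genes) and 3 were lower (9.68%, against 2.51%). The higher ones include the sucrose synthase and the SWEET10-like gene above. Without the second A18 library, 1 of the sucrose and hexose genes and 0 of the transporters were higher. The cytosolic fructose-bisphosphate aldolases, which act in glycolysis, included one gene in each direction: *LOC107853384* was higher in A18 by 1.39 ± 0.15, and *LOC107852345* higher in A101 by 2.01 ± 0.55 with A18 libraries at 0.06, −2.06 and −1.93. *LOC107852345* did not pass without the second or the third A18 library (1.64 and 1.70). *LOC107852065* (starch branching enzyme 1) was higher in A101 by 1.39 ± 0.29 and *LOC107878266* (beta-amylase, which releases maltose) by 1.15 ± 0.16. The beta-amylase did not pass after quantile normalization (0.95). *LOC107840396* (polyol transporter 5) was higher in A18 by 2.01 ± 0.46 and *LOC107866769* (monosaccharide-sensing protein 2, a vacuolar carrier) by 1.51 ± 0.20.

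Genes of the cell wall differed in both directions. Against 2.92% higher and 2.51% lower over all genes, 9 of 94 cellulose, xyloglucan and expansin genes were higher (9.57%) and 3 lower (3.19%), and 7 of 83 structural wall proteins were higher (8.43%) and 3 lower (3.61%). Of 90 pectin-modifying genes 2 were higher (2.22%) and 5 lower (5.56%). Without the second A101 library 5 of the first list were lower, and without the first A18 library 3 of the pectin genes. Beside endoglucanase 18-like, *LOC107839778* (endoglucanase 25-like, of the membrane-bound type used in cellulose synthesis) stood at 1.00, 0.32 and 0.53 in A101 and at −2.32, −2.20 and −2.24 in A18 (2.87 ± 0.17, adjusted p = 9.6e-11), as A18 fell by 2.30. *LOC107860225* (lysine-rich arabinogalactan protein 18-like), a wall glycoprotein, stood at 0.22, 0.05 and 0.14 against −3.75, −3.20 and −3.43 (3.60 ± 0.24, adjusted p = 1e-09), with a fall of 3.84 in A18. Another arabinogalactan protein, *LOC107873295* (fasciclin-like 10), went the other way, at −3.16, −3.52 and −3.52 in A101 and −0.11, −0.33 and −0.27 in A18. It was higher in A18 by 3.16 ± 0.16 and had fallen by 5.92 in A101 and by 2.19 in A18. Of the pectin genes, *LOC107861638* (pectinesterase/pectinesterase inhibitor U1) was higher in A101 by 1.94 ± 0.19, and *LOC107862632* (pectate lyase 18) and *LOC107878919* (pectinesterase 53) were higher in A18 by 1.64 ± 0.28 and 1.46 ± 0.15. Of 106 cuticle and lipid transfer genes 4 were higher (3.77%) and 3 lower (2.83%), near the shares over all genes. *LOC107854358* (ECERIFERUM 1-like, an enzyme of wax alkane synthesis) was higher in A18 by 2.76 ± 0.21, since it rose by 2.27 in A18 and fell by 1.01 in A101.

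Defence genes differed in both directions. Of 95 defensins and pathogenesis-related proteins, a list that also holds 1 latex allergen by name, 9 were higher in A101 and 8 lower, and of 23 protease inhibitors 3 were higher and 5 lower, against 2.92% and 2.51% over all genes. Proteinase inhibitor 2 genes, whose products block the digestive proteases of insects, were among the lower ones. *LOC107862771* (proteinase inhibitor type-2-like) stood at −1.98, −1.59 and −1.76 in A101 and at 1.72, 2.47 and 1.93 in A18 (higher in A18 by 3.82 ± 0.19, adjusted p = 9.5e-12). It was at its lowest value in all 3 immature A101 libraries and at 1.55 and 1.67 in immature A18, and in ripe red fruit at −1.68 and −1.55 in Hab and 2.61 to 2.92 in Biq. *LOC107862768* and *LOC107862766* (both wound-induced proteinase inhibitor 2-like) were higher in ripe A18 by 2.09 ± 0.26 and 1.86 ± 0.41, and at 20 DAA by 4.34 and 2.99. Reads of this family may be divided between its copies, so single members are uncertain. Over the list, 5 of 23 were lower in A101 at 60 DAA, 7 at 20 DAA, and 8 were lower in Hab than in Biq. Over all genes, 1.59% were lower in A101 at 20 DAA and 5.35% were lower in ripe Hab than in Biq. The 3 higher in A101 were 1 without the first A101 library. Without genes that share a lowest value, 1 protease inhibitor was higher and 3 were lower in A101 at 60 DAA. Of the defensins and pathogenesis-related proteins, 5 were then higher and 8 lower.

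Of 173 resistance-type receptors, which detect pathogen effectors inside the cell, 14 were higher in A101 (8.09%, against 2.92% of all genes) and 5 lower (2.89%, against 2.51%). A difference above 0 was seen for 126 of them, with a median of 0.19, against 8691 of 16922 genes and a median of 0.01. The list includes *LOC107854046* (pleiotropic drug resistance protein 1-like), an ABC transporter that carries the word resistance in its name only, which was higher by 3.50 ± 0.12. *LOC107859107* (RPP13-like protein 3) stood at 1.71, 1.55 and 1.48 in A101 and at −1.14, −1.05 and −1.20 in A18 (2.71 ± 0.10, adjusted p = 1.8e-13), and was already higher by 1.94 at 20 DAA. *LOC107876322* (late blight resistance protein homolog R1B-16) was higher by 2.39 ± 0.14. In the other direction *LOC107855799* (TMV resistance protein N-like) stood at −1.47, −1.67 and −1.57 in A101 and at 1.66, 0.88 and 0.66 in A18 (2.64 ± 0.22 higher in A18). At 20 DAA 17 of the 173 were higher and 4 lower, and between ripe Hab and Biq 9 were higher and 23 lower. Over all genes the shares were 2.22% and 1.59% at 20 DAA, and 5.54% and 5.35% between ripe Hab and Biq.

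Among receptor-like kinases, which sense signals at the cell surface, 10 of 294 were higher in A101 (3.4%) and 6 lower (2.04%). These shares were near those over all genes, 2.92% and 2.51%. *LOC107862548* (GSO1, a receptor for peptides that guide cuticle and endodermis formation in Arabidopsis) was higher in A18 by 3.44 ± 0.25, and *LOC107845413* (THESEUS 1, which monitors the wall) was higher in A101 by 1.63 ± 0.23.

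**Figure D4:**
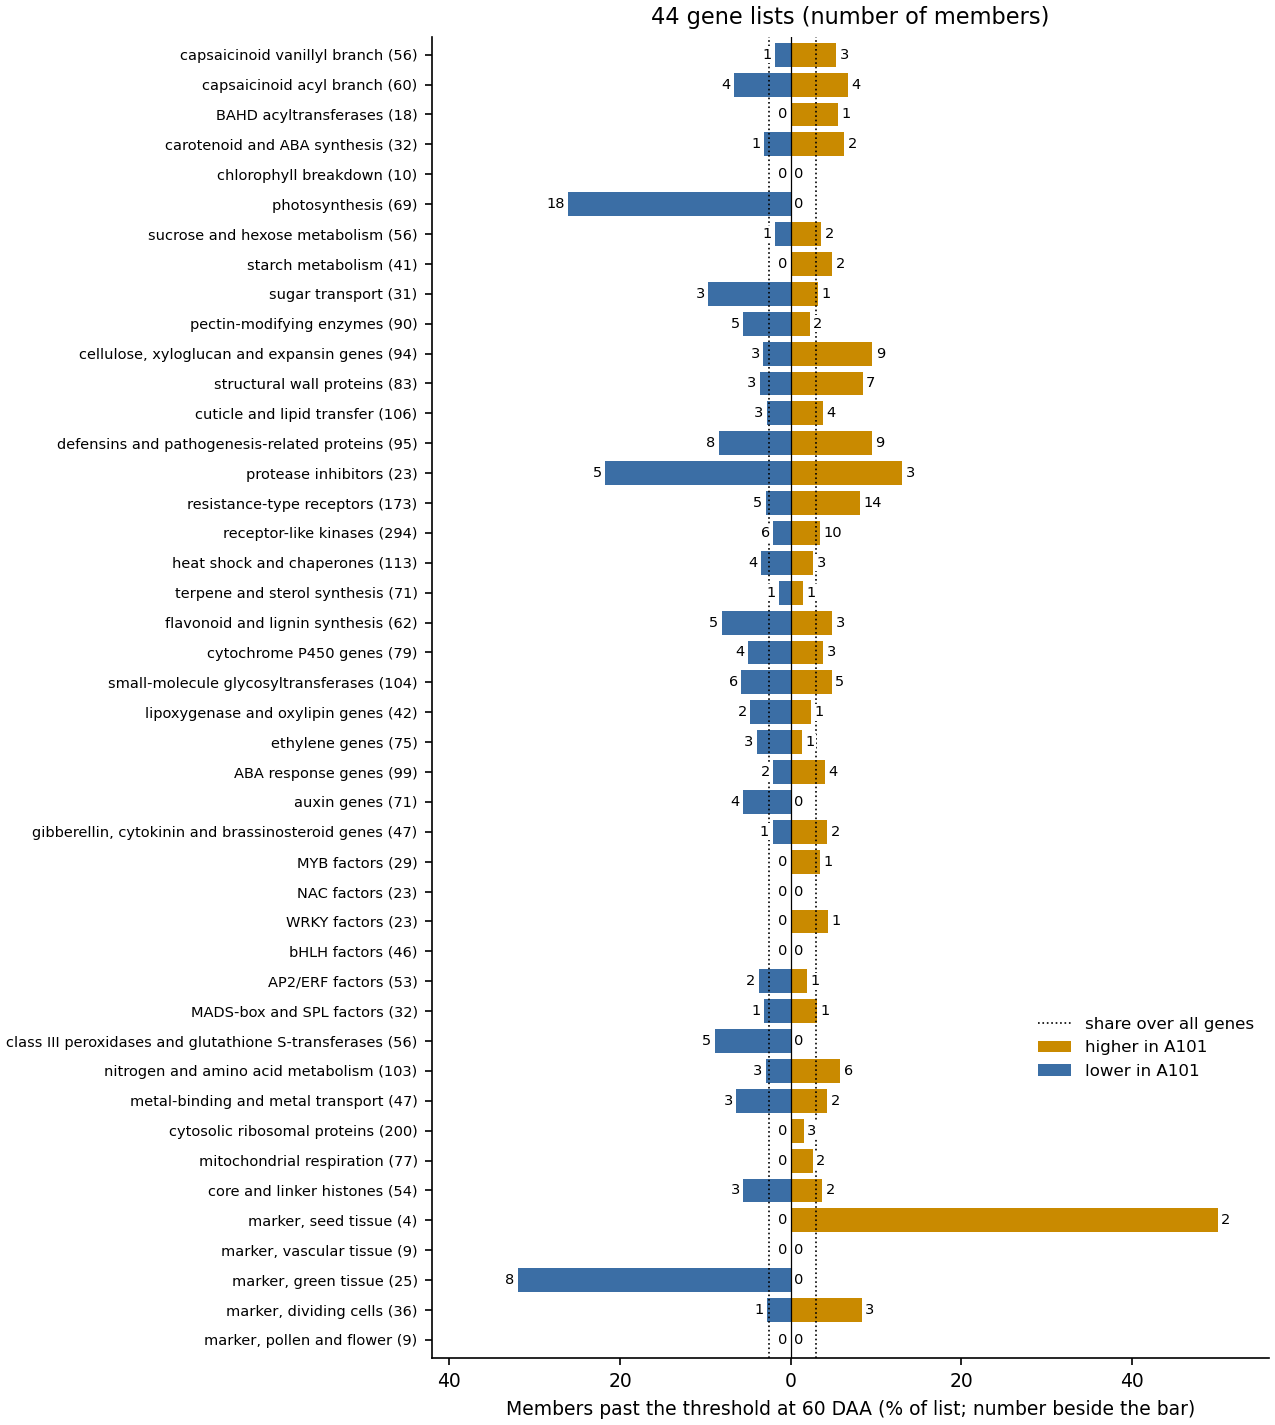
Share of each of 44 gene lists past the threshold at 60 DAA (x axis, % of the list, with the number of genes beside each bar), higher in A101 to the right and lower to the left; dotted lines mark 2.92% and 2.51%, the shares over all genes. The bars for photosynthesis (18 of 69 lower) and green tissue markers (8 of 25 lower) reach farthest to the left, and that for seed markers, with only 4 members, farthest to the right.

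Specialised metabolism differed by single genes. *LOC107878597* (cytochrome P450 CYP72A219-like) stood at 2.67, 3.38 and 3.08 in A101 and at −0.46, −0.53 and −0.50 in A18 (3.54 ± 0.16, adjusted p = 1.4e-12). *LOC107864345* (germacrene C synthase-like, a sesquiterpene synthase) stood at 1.64, 2.65 and 2.15 against −0.59, −0.32 and −0.81 (2.72 ± 0.17, adjusted p = 2.7e-10), and in ripe red fruit at 5.48 and 5.60 in pungent Hab and −0.55 to −0.30 in Biq. *LOC107851706* (5-epi-aristolochene synthase 2-like), the enzyme family that opens the synthesis of the pepper phytoalexin capsidiol, was higher in A18 by 2.36 ± 0.38. *LOC107839570* (linoleate 9S-lipoxygenase 5), which oxidizes fatty acids on the way to oxylipins, stood at 2.05, 2.32 and 2.12 in A101 and at −0.26, −1.10 and −0.40 in A18 (2.75 ± 0.17, adjusted p = 2.2e-10). Of 62 flavonoid and lignin genes 3 were higher (4.84%, against 2.92% of all genes) and 5 lower (8.06%, against 2.51%). *LOC107867152* (flavonoid 3'-monooxygenase-like) was higher in A101 by 1.46 ± 0.20, and *LOC107872855* (isoflavone reductase homolog) higher in A18 by 2.13 ± 0.33. Of 56 peroxidases and glutathione S-transferases 0 were higher in A101 by limma (8 at an unadjusted p under 0.05) and 5, or 8.93%, were lower (20). Over all 16922 genes the unadjusted counts were 3501 and 3380. Without genes that share a lowest value, 2 of the peroxidases and glutathione S-transferases were lower in A101.

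Hormone genes and transcription factors passed singly, to be read against 2.92% higher and 2.51% lower over all genes. Counts at an unadjusted p under 0.05 by limma are to be read against 3501 higher and 3380 lower of 16922 genes. Of 71 auxin genes 0 were higher in A101 by limma (17 at an unadjusted p under 0.05) and 4, or 5.63%, were lower (13), with *LOC107857232* (SAUR36) higher in A18 by 2.50 ± 0.16 beside SAUR68-like. Of 75 ethylene genes 1 was higher (0 without the second A18 library) and 3 were lower (5 without the first), with *LOC107873198* (1-aminocyclopropane-1-carboxylate oxidase homolog 1-like) higher in A18 by 1.70 ± 0.12, and with *LOC107860268* (AP2-like factor TOE3, a floral repressor in Arabidopsis) by 1.72 ± 0.12. *LOC107859881* (gibberellin-regulated protein 11-like) was higher in A101 by 2.91 ± 0.41, with uneven libraries of 1.58, −0.07 and 1.24 against −2.57, −0.78 and −2.63. Of 23 NAC and 46 bHLH factors 0 passed by limma, against 4 and 14 higher and 2 and 5 lower at an unadjusted p under 0.05, and 1 of 29 MYB (*LOC107862179*, 1.30 ± 0.16) and 1 of 23 WRKY factors (*LOC107878211*, WRKY 31, 1.43 ± 0.13) were higher. The MADS-box factors *LOC107867849* (AGL12) and *LOC107850815* (AGL27) went opposite ways. AGL12 stood at 1.67, 1.43 and 1.00 in A101 and at −0.58, −0.51 and −0.37 in A18, and AGL27, of a clade that represses flowering in Arabidopsis, at −1.20, −1.41 and −1.41 against 2.46, 1.85 and 1.50.

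Of 103 nitrogen and amino acid genes 6 were higher in A101 (5.83%) and 3 lower (2.91%), and of 47 metal genes 2 were higher (4.26%) and 3 lower (6.38%). Over all genes the shares were 2.92% and 2.51%. The lower nitrogen count was 1 without the second A18 library and 6 without the first. *LOC107850578* (glutamate decarboxylase, which makes gamma aminobutyrate) stood at −0.58, 0.08 and −0.13 in A101 and at −2.64, −3.21 and −2.67 in A18 (2.63 ± 0.18, adjusted p = 1.3e-09), after falls of 1.91 and 4.45. *LOC107841845* (chloroplastic glutamine synthetase, which takes up ammonium) stood at 0.21, 0.53 and 0.22 against −1.45, −1.75 and −1.55 (1.91 ± 0.20), and so was higher in A101 where the photosynthesis genes were lower. *LOC107860376* (lysosomal amino acid transporter 1 homolog) was higher in A18 by 2.58 ± 0.25, *LOC107873413* (asparagine synthetase) by 1.09 ± 0.24 and *LOC107855963* (NADH-dependent glutamate synthase 1) by 1.01 ± 0.21. The asparagine synthetase did not pass without the second or the third A18 library (−0.98 in both), and the glutamate synthase did not pass without either of these (−0.93 and −0.83) or the second A101 library (−0.93). *LOC107843819* and *LOC107858499* (zinc transporters 4 and 5) were higher in A101 by 2.72 ± 0.34 and 2.47 ± 0.30 and did not overlap between accessions at 60 DAA. *LOC107873510* and *LOC107874435* (metallothionein-like type 2, which bind metals) were higher in A18 by 2.29 ± 0.53 and 2.48 ± 0.14. Cytosolic ribosomal protein genes lay slightly higher in A101, 137 of 200 above 0 with a median of 0.16, against 8691 of 16922 and 0.01 over all genes. Past the threshold 3 of them were higher (1.5%, against 2.92% of all genes).

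Of 36 markers of dividing cells 3 were higher in A101 (8.33%, against 2.92% of all genes) and 1 lower (2.78%, against 2.51%). The difference was above 0 for 30 and below 0 for 6, with a median of 0.33, against 0.01 over all genes. The list had means of −0.69 to −0.64 in A101 and −1.15 to −1.07 in A18. Beside cyclin-2, the DNA replication licensing factors *LOC107859131* (MCM3 homolog 2) and *LOC107853885* (MCM2) were higher in A101 by 1.46 ± 0.19 and 1.31 ± 0.21, and had fallen in both accessions since 20 DAA. Histones went both ways, with *LOC107868481* (H2AXb) higher in A101 by 1.76 ± 0.08 and *LOC107873516* (histone H4) higher in A18 by 1.14 ± 0.12. Of 9 vascular and 9 pollen markers 0 passed by limma, against 2 and 3 higher and 0 and 2 lower at an unadjusted p under 0.05. At that unadjusted p, 3501 of all 16922 genes were higher and 3380 lower.

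Part of the ripe difference was there in green fruit. At 20 DAA 376 genes were higher in A101 than in A18 (2.22% of those tested) and 269 were lower (1.59%). Of the 494 genes higher at 60 DAA, 150 were also higher at 20 DAA (30.4% of the ripe list and 39.9% of the immature one), and of the 424 lower, 124 were also lower (29.2% and 46.1%). These comparisons share no library. The stage interaction, which uses the libraries of both, was more positive at 60 DAA for 393 genes (2.32%) and more negative for 421 (2.49%). It passed in the same direction for 215 of the genes higher in ripe A101 and for 181 of the lower ones. Among the 215, A101 rose with ripening for 125 and fell for 39, and A18 fell for 78 and rose for 27. Among the 181, A18 rose for 120 and fell for 10, and A101 fell for 47 and rose for 41. The interaction is the ripening change of A101 less that of A18, so choosing genes by its sign favours the larger counts. Among the genes with the largest ripe differences, the interaction was 6.78 for EARLI 1-like, 5.92 for endoglucanase 18-like, 5.28 for cathepsin B-like and −5.37 for defensin Ec-AMP-D1-like. By contrast *LOC107853898* (atg7, the E1-like enzyme of autophagy) was higher in A101 by 4.18 ± 0.11 at 60 DAA and by 3.82 at 20 DAA, with an interaction of 0.36.

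The direction turned between the stages for 9 genes, 3 higher and 6 lower in ripe A101. *LOC107864268* (salicylate carboxymethyltransferase-like, which makes methyl salicylate) was higher in A101 by 1.28 at 20 DAA and higher in A18 by 3.19 ± 0.34 at 60 DAA, with ripe libraries at −2.47, −1.52 and −2.03 in A101 and at 1.38, 1.07 and 1.09 in A18. *LOC107862115* (ethylene-responsive factor ERF113) turned from 1.76 higher in A101 to 1.37 ± 0.24 higher in A18, as A18 rose by 3.71 and the change of 0.58 in A101 did not pass. *LOC107843628* (SRG1-like, of the 2-oxoglutarate-dependent dioxygenases) turned the other way, from 1.98 higher in A18 to 1.29 ± 0.19 higher in A101.

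**Figure D5:**
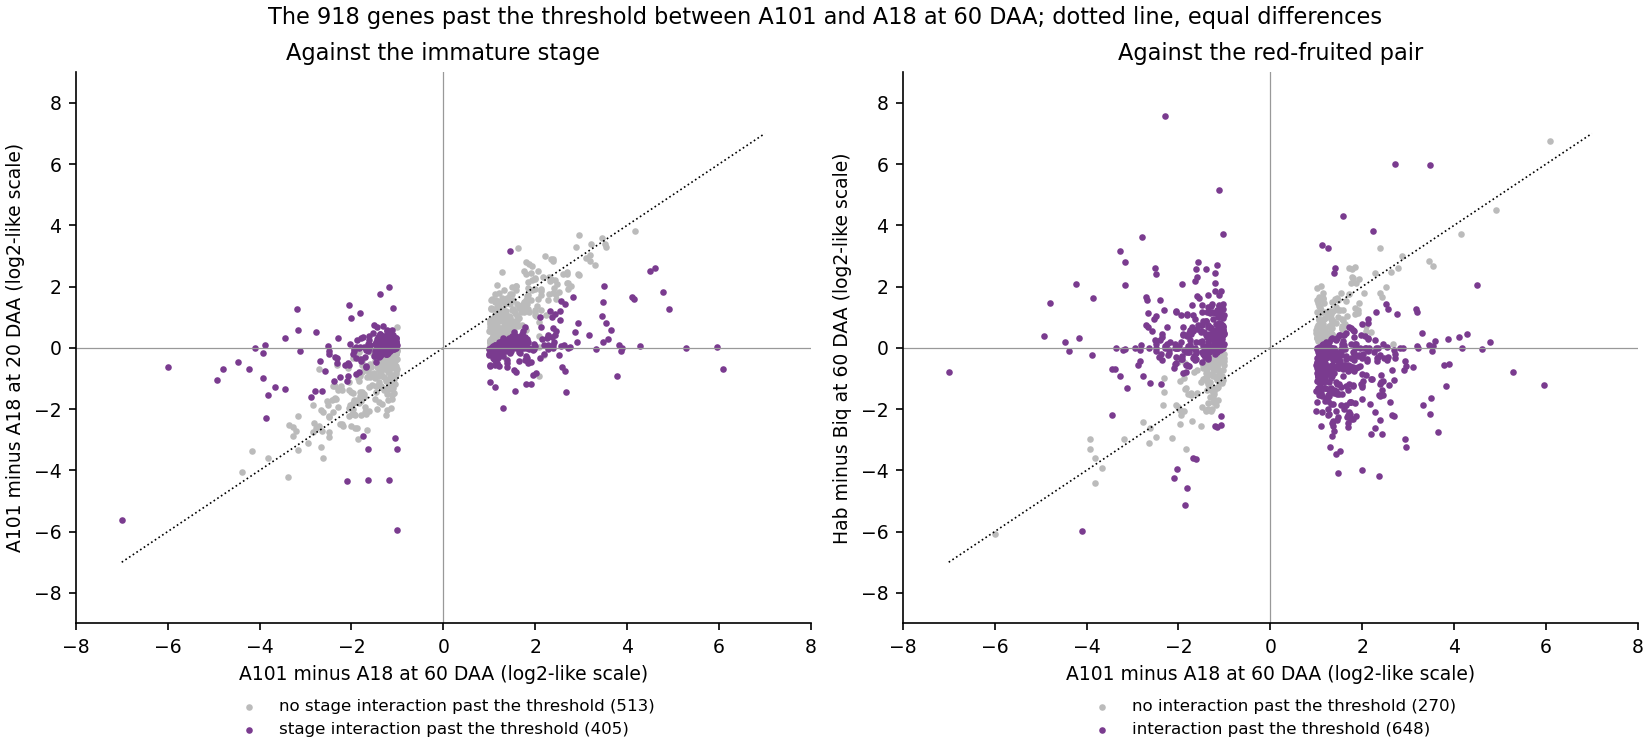
The 918 genes past the threshold between A101 and A18 at 60 DAA (x axis, difference in variance-stabilized units), against the same accessions at 20 DAA (left) and against Hab minus Biq at 60 DAA (right); purple points pass the interaction, grey points do not, and the dotted line marks equal differences. The interaction passes for 405 genes with stage and for 648 with the red pair.

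The other pungent and non-pungent accessions, red Hab and Biq, gave a set of genes that overlapped with this one in part, in both directions. In ripe fruit 938 genes were higher in Hab than in Biq (5.54%) and 905 were lower (5.35%). Of the genes higher in A101, 74 were also higher in Hab, of 494 in the yellow list and 938 in the red one, and 111 were lower in Hab (22.5% of the yellow list). Of those lower in A101, 79 were also lower in Hab (18.6% of the yellow list and 8.73% of the red one) and 62 were higher (14.6%). The interaction of the yellow with the red pair was more positive in yellow for 1610 genes (9.51%) and more negative for 1490 (8.81%). In the same direction at both stages of the yellow pair and in the red pair were 22 genes higher and 25 genes lower in the pungent accession. Cyclin-2 was among the genes shared by both ripe pairs, at 2.32 and 2.35 in Hab and −1.44 to −1.28 in Biq, as was EARLI 1-like at 7.41 and 7.50 in Hab and 0.38 to 0.89 in Biq. Metallothionein *LOC107873510* was opposite, at 4.82 and 4.90 in Hab and −3.04 to −2.40 in Biq, with an interaction of −9.86, and AGL27 was opposite with 1.80 and 2.02 in Hab and −1.41 to −1.17 in Biq. The photosynthesis list was 15 higher and 5 lower in Hab, against 0 higher and 18 lower in A101. Its median difference between ripe Hab and Biq was 0.00. The Hab library means (−1.20 and −1.25) lay within the range of Biq (−1.31, −1.85 and −1.12). Of the green tissue markers, 5 were higher and 5 lower in Hab, with a median of −0.40.

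Some genes were at their lowest value in all ripe libraries of one accession. This held for A18, and for no library of A101, with 69 genes, of which 39 passed, and for A101, and for no library of A18, with 37 genes, of which 28 passed. The fitted differences of such genes depend on the floor of the scale and are no measure of fold change. *LOC107865918* (small ubiquitin-related modifier 2-like) was at 3.88, 3.33 and 3.44 in A101 and at its floor in A18, and *LOC107860849* (S-acyltransferase 11-like) at 2.19, 2.14 and 2.26, with all 3 A18 libraries at the floor. In the other direction *LOC107869401* (an F-box protein) was at 1.31, 1.68 and 1.36 in A18, *LOC107856384* (actin-related protein 8-like) at 2.05, 1.67 and 1.70, and *LOC107850120* (pre-mRNA-processing factor 39-like) at 1.36, 1.37 and 1.38, with A101 at the floor. For the last 3 genes the immature A101 libraries were at the floor as well. Why a gene was at the floor was not tested.

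The ripening program as a whole was read from genes chosen in the red accessions. The 2100 genes that rose from 20 to 60 DAA in both Hab and Biq had a median difference between ripe A101 and A18 of −0.13, after median rises of 1.24 in A101 and 1.32 in A18. The 3283 genes that fell in both had a median difference of 0.11, after median changes of −1.66 and −1.77. Among the rising genes 81 were higher and 106 lower in A101 (8.9% called, against 5.42% of all genes), and among the falling genes 94 were higher and 46 lower (4.26%). After quantile normalization the medians were −0.11 and 0.01.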

How the data were processed

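RNA of pericarp from 4 accessions at 20 and 60 DAA was sequenced by the study in 22 libraries. Groups had 3, apart from immature A18 and ripe Hab, which had 2. The authors trimmed reads with fastp 0.23.1, assigned them with Salmon 1.6.0 to the transcripts of *Capsicum annuum* Zunla-1, kept genes with sufficient reads, and normalized with DESeq2 1.36.0. The deposited table holds variance-stabilized values, close to log2, less the mean of each gene, for 16922 genes. It holds no counts, so depth is unknown from it, and no count model was used; the study inspected library sizes and mapping rates, which were not used here. The reads of *C. chinense* were counted on another species. The study compared this with quantification on a *C. chinense* genome over orthologous genes, and its effect on single genes was not tested here. Plants stood in randomized blocks, which the columns do not name. Columns were mapped to groups by name, and all were used.

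limma 3.58.1 (R 4.3.3) was fitted with a mean per group over all 22 libraries, without trend. A gene passed with a Benjamini-Hochberg adjusted p under 0.05 over all genes and a difference of at least 1. Errors are standard errors of the fitted difference. The fit was tested on simulated data. Gene lists were matched by words in the gene names. Members, lists and tests were chosen with earlier results of these data known. Named genes were the 12 with the largest difference each way with separate libraries, up to 3 per list and direction, the carbohydrate-related and most variable genes of the study, capsaicinoid genes that passed, 5 each way by each interaction, genes at the floor in 1 accession, and genes with opposite directions at 20 and 60 DAA; any other is said to be chosen after its values were seen. Gene identifiers matched 0 entries of the reference table provided, so positions and sequences are not given here. Alternatives were other normalizations, group-wise fits, medians, library weights, a robust fit, thresholds, genes at the floor left out, and each library left out in turn. Figures were drawn with matplotlib 3.10.9.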

Additional observations from a re-analysis of the deposited data

Results flagged for a closer look

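The difference between A101 and A18 was not the same at both stages for 393 genes, which were more positive at 60 DAA, and for 421, which were more negative, by limma's test of the stage interaction. The difference in ripe fruit was not the same in the yellow and the red pair for 1610 genes, more positive in yellow, and 1490, more negative.

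Stage interactions were ranked only among named genes that passed between ripe A101 and A18. The interaction was most positive for *LOC107867449* (EARLI 1-like, 6.78), *LOC107864477* (endoglucanase 18-like, 5.92), *LOC107858946* (cathepsin B-like, 5.28), *LOC107877516* (ribonuclease S-7-like, 4.93) and *LOC107873046* (60S ribosomal protein L10-like, 4.68). The ribonuclease, of the type that acts in self-incompatibility, was at 5.69 and 6.76 in immature A18 and at −0.57, 0.85 and 0.59 in immature A101, and low in both when ripe. Its ripe difference did not pass in the robust fit (−1.01). Nor did it pass without any single ripe library of A101 or A18 (−1.08 to −0.95). Among the named genes so ranked, the interaction with stage was most negative for *LOC107855074* (defensin Ec-AMP-D1-like, −5.37), *LOC107864268* (salicylate carboxymethyltransferase-like, −4.47), *LOC107864633* (glutathione S-transferase U9-like, −4.12), *LOC107844024* (cytochrome P450 98A2-like, −4.09) and *LOC107867057* (importin subunit alpha-1a-like, −3.98).

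Among the named genes that passed between ripe A101 and A18, the difference between the yellow and the red pair was most positive for *LOC107864477* (endoglucanase 18-like, 7.18), *LOC107840300* (carboxylesterase 12, 6.40), *LOC107858946* (cathepsin B-like, 6.07), *LOC107850049* (long-chain-alcohol oxidase FAO4A-like, 5.97) and *LOC107858744* (aldo-keto reductase 2, 5.90). It was most negative for *LOC107873510* (metallothionein-like type 2, −9.86), *LOC107850815* (AGL27, −6.45), *LOC107841040* (aldehyde dehydrogenase, −6.32), *LOC107864633* (−6.26) and *LOC107868178* (polygalacturonase-2-like, −6.26). Carboxylesterase 12 was higher in A101 by 3.66 ± 0.23 and lower in Hab than in Biq by 2.74, and the polygalacturonase-2-like gene was higher in A18 by 1.11 ± 0.16 and higher in Hab than in Biq by 5.15. Its difference between A101 and A18 did not pass after quantile normalization or without the first A18 library (−0.95 in both).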

How the results depend on the processing

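No paired analysis was possible because the columns of the table carry no replicate or block numbers. Settings for the 20 DAA, Hab against Biq, interaction, overlap and ripening counts were chosen after seeing the data. Of the 918 genes, 814 to 877 were kept without one library, 873 in a fit of the 6 libraries alone, 886 after quantile normalization, 854 with library weights, 913 with medians and 909 with a robust fit, and 307 when the difference itself was tested against 1. That test gave 175 genes higher and 132 lower in A101 at 60 DAA, 128 and 96 at 20 DAA, 60 and 66 for the stage interaction, 289 and 329 for Hab against Biq, and 516 and 399 for the yellow-red interaction. It left 65 and 57 shared with 20 DAA, 42 and 27 with a stage interaction of the same sign, 31 and 27 shared with Hab against Biq, and 23 and 11 opposite. With the adjusted p alone, the counts were 2558 and 2504, 910 and 781, 1029 and 1007, 4006 and 3890, and 3963 and 3991, with 457 and 356, 758 and 701, 586 and 509, and 839 and 825 in the overlaps. Without genes that share a lowest value, 217 and 161 passed at 20 DAA and 90 and 75 were shared. Quantile normalization gave 607 higher in Hab than Biq. With one library left out, the ranges were 445 (without the third A18 library) to 558 (without the first) higher and 400 to 479 lower at 60 DAA, 365 to 383 and 239 to 347 at 20 DAA, 328 to 511 and 370 to 487 for the stage interaction, 884 to 1050 and 863 to 1000 for Hab against Biq, and 1463 to 1815 and 1396 to 1700 for the yellow-red interaction. They were 139 to 152 and 118 to 133 shared with 20 DAA, 182 to 260 and 158 to 210 with a stage interaction of the same sign, 73 to 82 and 75 to 85 shared with Hab against Biq, up to 118 and 53 to 70 opposite, and −0.17 to −0.10 and 0.07 to 0.14 for the ripening medians. The cause of these changes was not tested. The depth behind a value could not be weighed, since the table holds no counts.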
